A study of Mus musculus with 24 samples.

Results

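Interferon-stimulated genes are the genes that cells switch on in response to interferons, and 43 of them were followed here in resting dendritic cells of the mouse spleen. The genes were taken by symbol from a given list (from Ddx58 and the Ifit and Oas families to Adar), and all 43 were among the 24421 gene symbols of the count files. All 43 also passed the filter on low counts, which left 13166 genes for testing. Ifih1, a cytosolic RNA sensor, was left out of the list because it differs between the mouse lines, and its values are given once near the end.

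Type I interferons bind a receptor made of Ifnar1 and Ifnar2, whose kinases Jak1 and Tyk2 activate transcription factors such as Stat2. With Irf9, Stat2 is part of a complex that binds the interferon-stimulated response element (ISRE) in the promoters of target genes. The products of these genes sense foreign nucleic acid, block viral entry and translation, cut RNA or feed back on the pathway, and many of them are transcribed at a low level in uninfected tissue as well.

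RNA was sequenced from conventional dendritic cells of type 1 (cDC1) and type 2 (cDC2) sorted by flow cytometry from spleens of untreated C57Bl/6 mice aged 6 to 12 weeks. The deletion line carried floxed Zeb2 (Zeb2fl/fl) and the transgene line a Zeb2 transgene in the Rosa26 locus (R26-Zeb2Tg/Tg), in each case without Cre or with a Cre driven by CD11c (CD11cCRExZeb2fl/fl and CD11cCRExR26-Zeb2Tg/Tg). Zeb2 is a zinc-finger transcription factor with a role in dendritic cell development. Each of the 8 groups of subset, line and Cre had 2 Cre-negative or 4 Cre-positive libraries, 24 in all. The controls had no Cre at all, so each Cre comparison holds the presence of Cre as well as the change in Zeb2, and the CD11c driver acts in CD11c-expressing cells in general and not in one subset. Whether the libraries of a group are from different mice is not in the labels, and p-values therefore cover only the spread among these libraries.

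The libraries held 21972763 to 36094786 counts in genes. Zeb2 itself moved as labelled in transgenic cDC1 and deleted cDC2, and its values in the other 2 comparisons stand beside them below: 2.36 to 3.26 CPM (counts per 1000000 counts of the library, scaled for its composition) in control and 41.4 to 46.3 CPM in Cre-positive transgene-line cDC1, and 132 to 176 CPM in control and 30.7 to 41.4 CPM in Cre-positive cDC2 of the deletion line. All 10 listed cDC1 markers were lower, and all 10 cDC2 markers higher, in cDC2 than in cDC1 without Cre. One set of libraries stood apart. In the 4 Cre-positive cDC1 libraries of the transgene line the summed level of the 10 cDC2 markers was 547, 534, 307 and 189 CPM in replicates 1 to 4, against 43.2 and 44.1 CPM in their controls, so results that rest on these libraries are given below with that value beside them.

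The first comparison asked how the 43 genes differ between the subsets without Cre. In control cDC2 against control cDC1 (4 libraries of both lines in each), 28 of 43 were higher and 7 were lower at an adjusted p under 0.05 (the quasi-likelihood test of edgeR, with p adjusted over all tested genes by Benjamini-Hochberg, as throughout), where 27.6% of all tested genes were higher and 25.8% lower. Their median log2 fold change was 0.82, against 0.05 over all tested genes. For 26 of the 43 every cDC2 library lay above every cDC1 library (23.4% of all genes), and for 7 every cDC2 library lay below (22.6% of all genes). In bulk samples such as these, fewer cells of a type and less RNA per cell cannot be told apart.

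**Figure D1:**
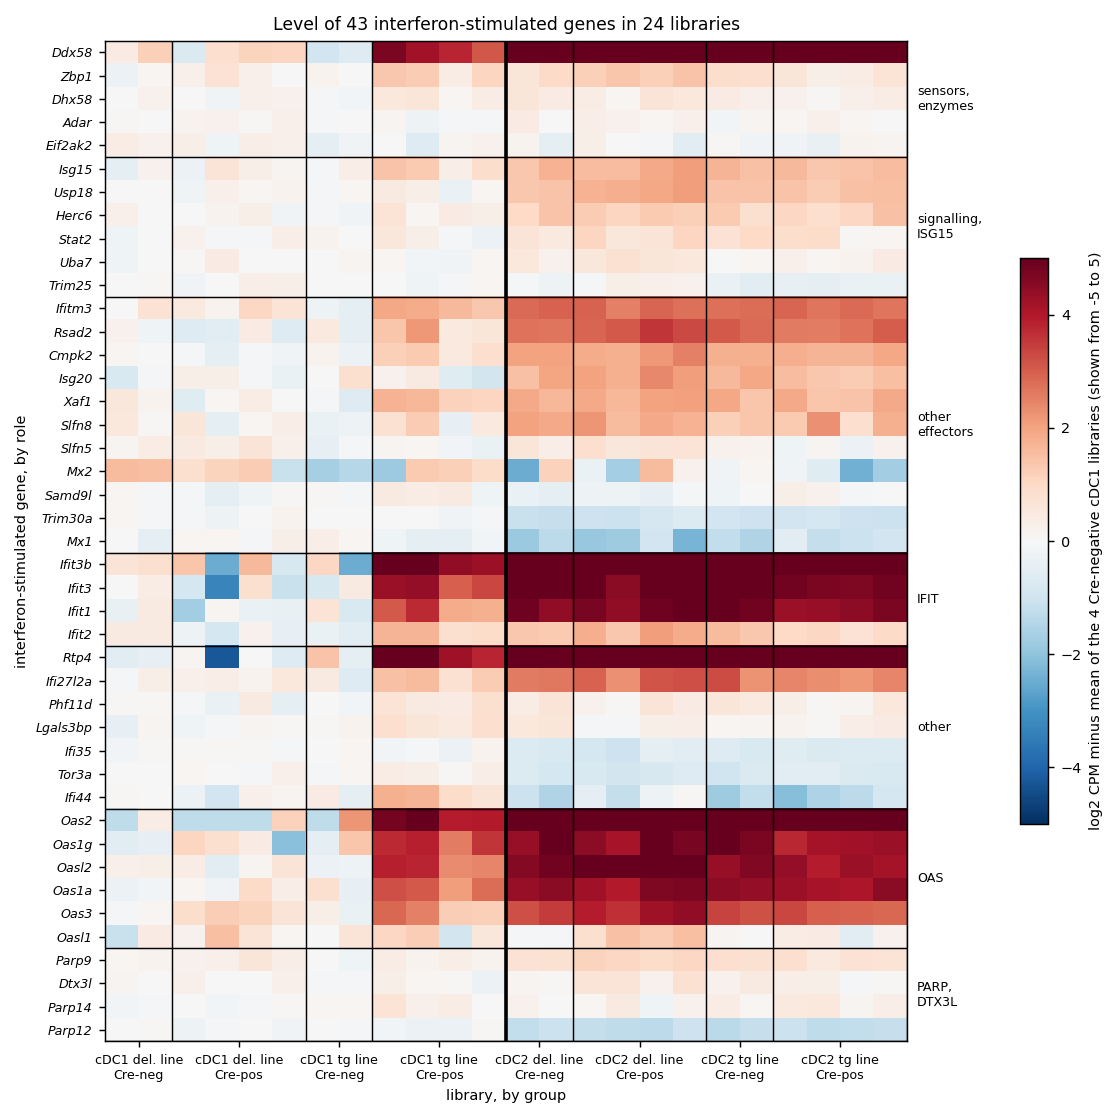
Level of each of the 43 genes (rows, grouped by role) in each of the 24 libraries (columns, grouped by subset, line and Cre; replicates in order), as log2 CPM minus the mean of the 4 Cre-negative cDC1 libraries. Del. line and tg line are the deletion and transgene lines. Rtp4, Ddx58 and most Ifit and Oas genes (not Ifit2 and Oasl1) are dark red in the cDC2 libraries, and red to dark red in the 4 Cre-positive cDC1 libraries of the transgene line. Values beyond -5 or 5 are drawn at that limit.

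Among the sensors and enzymes that act on nucleic acid, 3 of 5 were higher in control cDC2 (Ddx58, Dhx58 and Zbp1) and none was lower. Ddx58, which encodes the RNA sensor RIG-I, was at 1.35 and 2.39 CPM in control cDC1 of the deletion line, at 0.522 and 0.640 CPM in control cDC1 of the transgene line, and at 73.8, 74.1, 75.9 and 81.6 CPM in the 4 control cDC2 libraries. The groups did not overlap, with a log2 fold change of 6.20 (SE 0.32, adjusted p = 1.6e-13). Zbp1, a sensor of Z-form nucleic acid, differed by 0.82 on the log2 scale (SE 0.18, adjusted p = 0.00043) and Dhx58, a helicase related to RIG-I, by 0.42 (SE 0.12, adjusted p = 0.0068). Eif2ak2, the RNA-activated kinase PKR, and Adar, the RNA-editing enzyme, did not pass, with log2 fold changes of -0.08 and 0.12.

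All 4 Ifit genes, whose products bind viral RNA, were higher in control cDC2. They lie side by side on chromosome 19, from the start of Ifit2 at 34550694 to the end of Ifit1 at 34650009 (GRCm38). Ifit1 was at 0.526, 0.924, 1.09 and 0.394 CPM in the control cDC1 libraries and at 20.3, 15.1, 25.0 and 19.8 CPM in the control cDC2 libraries (log2 fold change 4.74, SE 0.40, adjusted p = 6.9e-10). Ifit3 was at 0.564, 0.756, 0.321 and 0.788 CPM against 21.9, 19.5, 26.6 and 19.8 CPM (log2 fold change 5.19, SE 0.43, adjusted p = 5e-10). In both genes the lowest cDC2 library lay far above the highest cDC1 library. Ifit3b, a close copy of Ifit3, had 4, 4, 5 and 0 counts in the control cDC1 libraries, so its fitted log2 fold change of 5.71 rests on few counts on one side; how the counting split reads between the 2 copies is not given in the sources used here. Ifit2 differed least of the family (19.6, 19.7, 11.7 and 9.90 CPM against 36.8, 36.2, 43.9 and 36.7 CPM; log2 fold change 1.39, SE 0.21, adjusted p = 5.6e-06).

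Of the 6 Oas genes, 5 were higher in control cDC2 and Oasl1 did not pass (log2 fold change -0.12, SE 0.38). Oas enzymes make oligoadenylates that activate RNase L, and the Oasl genes are their relatives. Oas1a stood at 1.73, 1.93, 3.70 and 1.58 CPM in control cDC1 and at 43.2, 49.0, 46.9 and 45.0 CPM in control cDC2 (log2 fold change 4.37, SE 0.27, adjusted p = 4.1e-12). Oasl2 stood at 1.99, 2.02, 1.37 and 1.38 CPM against 40.2, 47.8, 34.6 and 41.0 CPM (log2 fold change 4.62, SE 0.32, adjusted p = 2.1e-11). For Oas3 the values were 3.19, 3.53, 4.10 and 2.66 CPM against 31.1, 37.7, 34.4 and 30.7 CPM (log2 fold change 3.30, SE 0.31, adjusted p = 4e-09). All 3 genes were separated between the subsets by a wide gap. Oas1g and Oas2 had 4 counts or fewer in each control cDC1 library and log2 fold changes of 5.17 and 6.52.

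The promoters of the Ifit and Oas genes are shown because most of these genes passed both between the subsets and with the transgene in cDC1. The RefSeq promoter table (GRCm38.p6, 250 bases before to 50 after each start) held 32 of the 43 genes. The ISRE core was searched as GAAANNGAAA on both strands (TTTCNNTTTC on the other), and overlapping matches were counted. It was found for 15 of the 32 genes (46.9%), against 3.99% of all 27025 genes of the table. A gamma-activated site (TTCNNNGAA, its own reverse complement) was found for 7 of 32 (21.9%), against 9.55% of all genes. A match is a string of letters and no measure of binding. The 200 bases before the start are printed 5′ to 3′ on the gene's own strand for 5 Ifit and Oas genes and for Trim30a, which was lower in cDC2, with the ISRE core in capitals:
Ifit1, chr19:34640689-34640888, plus strand: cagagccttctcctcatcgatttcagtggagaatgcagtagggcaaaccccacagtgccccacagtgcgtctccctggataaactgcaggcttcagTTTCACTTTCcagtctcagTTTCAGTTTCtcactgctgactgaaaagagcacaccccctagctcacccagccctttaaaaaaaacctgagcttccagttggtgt
Ifit3, chr19:34583329-34583528, plus strand: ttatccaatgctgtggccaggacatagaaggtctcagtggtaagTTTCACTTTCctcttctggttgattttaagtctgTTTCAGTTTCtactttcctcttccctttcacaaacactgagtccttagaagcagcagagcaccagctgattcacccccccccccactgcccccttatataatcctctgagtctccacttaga
Ifit3b, chr19:34607757-34607956, plus strand: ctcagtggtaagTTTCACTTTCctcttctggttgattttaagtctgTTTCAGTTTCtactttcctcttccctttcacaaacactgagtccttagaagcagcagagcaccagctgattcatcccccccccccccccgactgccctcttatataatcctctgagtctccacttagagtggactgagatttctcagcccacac
Oas1a, chr5:120907526-120907725, minus strand: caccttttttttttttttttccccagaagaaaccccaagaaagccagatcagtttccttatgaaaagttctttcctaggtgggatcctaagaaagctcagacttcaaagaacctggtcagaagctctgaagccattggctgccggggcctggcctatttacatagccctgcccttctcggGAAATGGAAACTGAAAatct
Oas3, chr5:120777660-120777859, minus strand: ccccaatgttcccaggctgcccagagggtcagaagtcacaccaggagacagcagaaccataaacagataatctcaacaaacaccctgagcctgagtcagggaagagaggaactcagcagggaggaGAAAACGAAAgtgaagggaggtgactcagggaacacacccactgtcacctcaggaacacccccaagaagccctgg
Trim30a, chr7:104465194-104465393, minus strand: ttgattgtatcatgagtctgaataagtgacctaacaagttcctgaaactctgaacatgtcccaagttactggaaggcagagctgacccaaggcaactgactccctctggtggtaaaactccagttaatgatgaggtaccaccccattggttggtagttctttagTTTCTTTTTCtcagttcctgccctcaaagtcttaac

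The 2 Ifit3 copies carry their cores in the TTTC orientation at the same spacing from each other, and in Oas1a 2 cores overlap next to the start. Oasl2, Ifit2, Xaf1 and Cmpk2 had no match in the window, which says only that these letters were not in it. Ddx58 and Ifitm3 had their matches after the start and are not printed.

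Of the 11 effectors that include the Mx GTPases, 7 were higher in control cDC2 and 2 were lower. Ifitm3, a membrane protein that blocks viral entry, was at 54.0, 87.9, 44.5 and 39.2 CPM in control cDC1 and at 381, 416, 366 and 376 CPM in control cDC2 (log2 fold change 2.82, SE 0.17, adjusted p = 2e-12). The other 6 that passed upwards were Rsad2 (viperin), Cmpk2, Isg20, Xaf1, Slfn8 and Slfn5, with log2 fold changes from 2.78 down to 0.32. Trim30a, an E3 ligase of the TRIM family, went the other way: 174, 153, 162 and 168 CPM in control cDC1 against 75.1, 74.6, 84.1 and 79.3 CPM in control cDC2 (log2 fold change -1.07, SE 0.09, adjusted p = 1e-09). Mx1 was lower as well (7.03, 5.17, 8.76 and 7.53 CPM against 1.90, 2.84, 2.95 and 2.43 CPM; log2 fold change -1.48, SE 0.23, adjusted p = 1.2e-05). Neither gene overlapped between the subsets. Samd9l did not pass, nor did Mx2, which is annotated as a polymorphic pseudogene and stayed under 1 CPM in every library.

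In the signalling group, which holds Stat2 and the enzymes that attach or remove the ubiquitin-like protein Isg15, 4 of 6 were higher in control cDC2 and 1 was lower. Usp18, which removes Isg15 and restrains the receptor, was at 37.0, 38.4, 35.5 and 40.5 CPM against 96.0, 102, 101 and 101 CPM (log2 fold change 1.40, SE 0.12, adjusted p = 1.7e-09). Isg15, Herc6 (its ligase in the mouse) and Stat2 had log2 fold changes of 1.53, 1.14 and 0.71. Trim25, an E3 ligase that acts on RIG-I, was slightly lower in cDC2 (109, 112, 106 and 106 CPM against 104, 91.1, 86.9 and 73.7 CPM; log2 fold change -0.29, SE 0.10, adjusted p = 0.022), and its 2 groups nearly touched. Of the 4 PARP genes with their partner Dtx3l, Parp9 was higher (log2 fold change 0.78, SE 0.09) and Parp12 lower: 133, 135, 130 and 127 CPM against 56.6, 61.6, 51.7 and 59.8 CPM (log2 fold change -1.20, SE 0.09, adjusted p = 4.6e-11). Exons of Parp9 and Dtx3l overlap on opposite strands, and whether the counting used strand is not given in the sources used here.

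Among the remaining 7 genes, Rtp4, Ifi27l2a, Phf11d and Lgals3bp were higher and Ifi35, Tor3a and Ifi44 lower. Rtp4, a chaperone of membrane receptors, had the largest log2 fold change of the 43 (7.06, SE 0.44, adjusted p = 4.4e-12), from 0.225, 0.252, 0.964 and 0.246 CPM to 43.9, 56.0, 60.6 and 49.6 CPM. Ifi27l2a was at 6.88, 9.03, 10.1 and 4.73 CPM against 45.2, 45.7, 71.6 and 35.5 CPM (log2 fold change 2.68, SE 0.24, adjusted p = 2.5e-09). The 2 subsets did not overlap in either gene. Tor3a, a torsin ATPase, was at 134, 134, 132 and 145 CPM in control cDC1 and at 84.5, 74.5, 69.0 and 82.6 CPM in control cDC2 (log2 fold change -0.81, SE 0.09, adjusted p = 5.4e-08). Ifi35 differed by -0.70 (SE 0.10): 114, 130, 129 and 134 CPM against 79.5, 75.0, 81.5 and 75.2 CPM. Ifi44 differed by -1.42 (SE 0.33, adjusted p = 0.00095): 5.49, 5.17, 7.07 and 3.84 CPM against 2.46, 1.85, 1.53 and 2.26 CPM. In these 3 genes every cDC1 library lay above every cDC2 library. Listed marker genes of other cells also differed between the control subsets: of 10 monocyte markers 7 were higher in cDC2 and of 10 red pulp macrophage markers 7 were higher and 1 lower. Of 10 plasmacytoid dendritic cell markers 7 were higher and 2 lower, and among 12 genes of the early response and heat shock 7 were higher and 2 lower. Their part in the difference of the 43 genes was not tested.

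**Figure D2:**
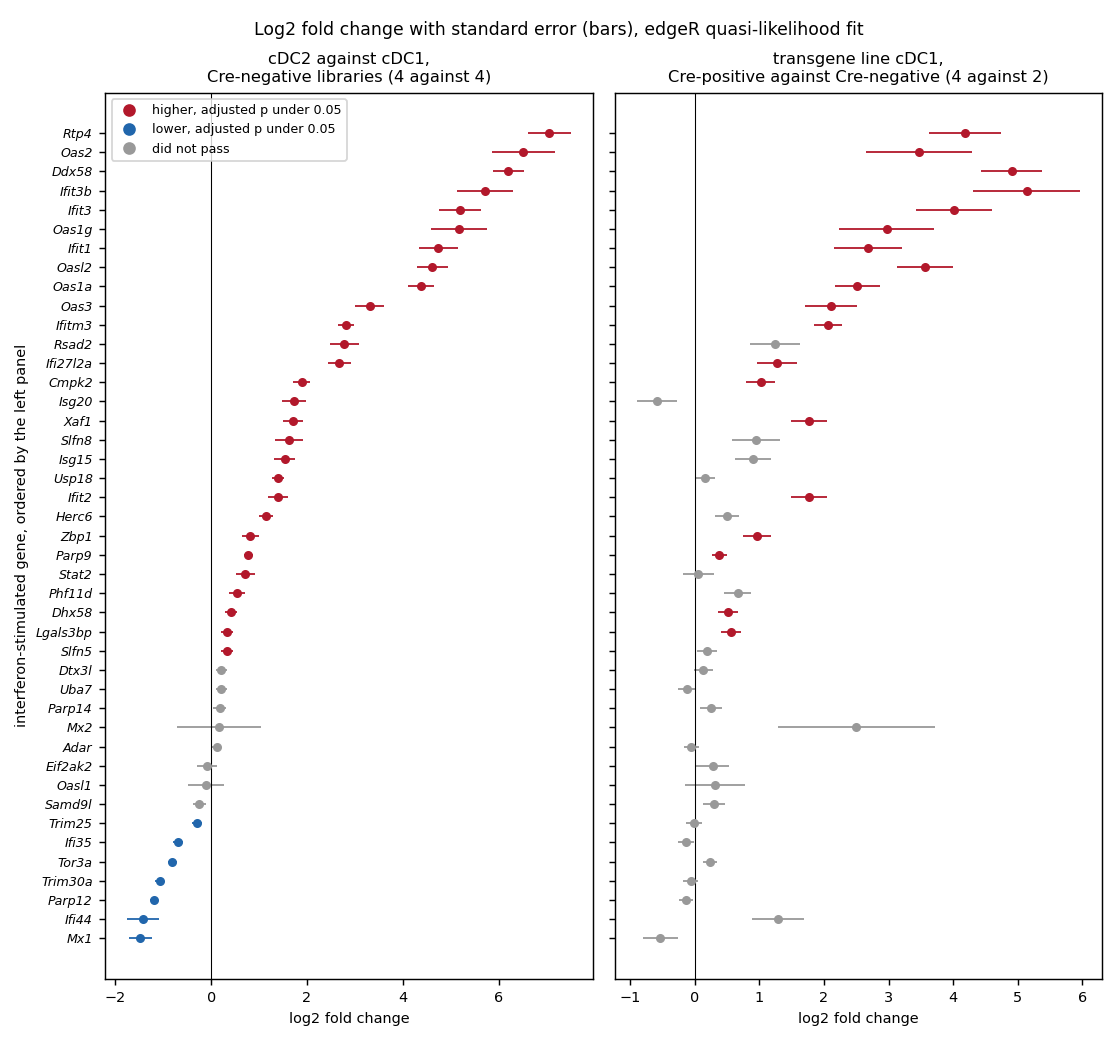
Log2 fold change with its standard error for each of the 43 genes in control cDC2 against control cDC1 (left) and in transgene-line cDC1 with against without Cre (right), in the order of the left panel. In the left panel 28 genes passed upwards and 7 downwards, and in the right panel 19 passed upwards; both panels share the 2 control cDC1 libraries of the transgene line.

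The second comparison asked how the genes change when the Zeb2 transgene is expressed in cDC1, where Zeb2 is otherwise low. In cDC1 with the active transgene (4 Cre-positive libraries against 2 controls), 19 of 43 rose and none fell, where 3.58% of all tested genes were higher and 3.42% lower. No gene of the list had a negative fold change at an unadjusted p under 0.05. DESeq2, another count model, called 23 higher and 0 lower, where it called 605 of all tested genes higher and 585 lower. By edgeR 17 were higher with DESeq2 size factors and 13 with the compared libraries alone (447 and 251 of all tested genes). In the main fit the median log2 fold change of the 43 was 0.66, against 0.02 over all tested genes. For 23 of the 43 all 4 Cre-positive libraries lay above both controls (13.4% of all genes). The 2 control libraries are shared with the comparison of the subsets, so the values of both are only set side by side. Of the 10 cDC2 markers 9 rose in the same libraries, 6 of the 10 cDC1 markers fell, 4 of 10 monocyte markers and 3 of 10 red pulp macrophage markers rose, and no plasmacytoid dendritic cell marker of 10 rose; their part in the rise of the 43 genes was not tested.

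All 4 Ifit genes rose. Ifit3 was at 0.321 and 0.788 CPM in the controls and at 12.0, 12.4, 4.65 and 6.00 CPM in Cre-positive replicates 1 to 4 (log2 fold change 4.01, SE 0.59, adjusted p = 8.1e-05). Ifit1 went from 1.09 and 0.394 CPM to 5.75, 9.24, 2.48 and 2.35 CPM (log2 fold change 2.68, SE 0.53, adjusted p = 0.0019). Ifit2 went from 11.7 and 9.90 CPM to 47.1, 47.7, 25.1 and 27.8 CPM (log2 fold change 1.77, SE 0.28, adjusted p = 0.00017). In all 3 genes replicates 1 and 2 were well above replicates 3 and 4, and the lowest of the 4 still exceeded both controls. Ifit3b was at 0.201 and 0 CPM (5 and 0 counts) in the controls and at 7.59, 4.11, 2.29 and 2.09 CPM with Cre (fitted log2 fold change 5.14, SE 0.83, adjusted p = 0.00021). The ISRE cores of Ifit1, Ifit3 and Ifit3b are those printed above; Ifit2 had none in its window.

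Of the 6 Oas genes 5 rose and Oasl1 did not pass. Oasl2 went from 1.37 and 1.38 CPM to 24.7, 23.2, 8.57 and 9.01 CPM (log2 fold change 3.57, SE 0.43, adjusted p = 7.4e-06), and Oas1a from 3.70 and 1.58 CPM to 19.8, 17.9, 9.07 and 14.9 CPM (log2 fold change 2.52, SE 0.35, adjusted p = 3.7e-05). Oas3 went from 4.10 and 2.66 CPM to 24.5, 19.3, 7.79 and 7.56 CPM (log2 fold change 2.11, SE 0.40, adjusted p = 0.0014). Replicates 1 and 2 were again the highest, and no control reached the lowest Cre-positive library. Oas1g and Oas2 also passed, at 1.53 CPM or less in every cDC1 library, with 5 and 4 control counts in all. Oasl1 was at 6.35 and 9.90 CPM in the controls and at 13.0, 14.7, 3.33 and 9.24 CPM with Cre, a spread of 4.41-fold that spanned the controls (log2 fold change 0.31, SE 0.46).

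Among the sensors, Ddx58 rose from 0.522 and 0.640 CPM to 27.3, 18.9, 14.5 and 9.07 CPM, the smallest p of the 43 genes here (log2 fold change 4.90, SE 0.47, adjusted p = 2.7e-07). Zbp1 went from 14.1 and 12.8 CPM to 31.8, 30.6, 16.2 and 26.6 CPM (log2 fold change 0.96, SE 0.22, adjusted p = 0.0078). Dhx58 went from 39.1 and 37.4 CPM to 59.5, 62.6, 43.8 and 52.4 CPM (log2 fold change 0.51, SE 0.16, adjusted p = 0.047). Replicate 3 of both was only just above the controls. Eif2ak2 and Adar did not pass. The control level of Ddx58 was itself lower in the transgene line than in the deletion line (1.35 and 2.39 CPM), a difference that did not pass (adjusted p = 0.52). Against the deletion line's controls as well, every Cre-positive transgene library was higher.

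Of the 11 effectors 3 rose: Ifitm3, Xaf1 and Cmpk2. Ifitm3 went from 44.5 and 39.2 CPM to 204, 194, 167 and 135 CPM (log2 fold change 2.06, SE 0.22, adjusted p = 1.1e-06). Xaf1, a partner of the apoptosis inhibitor XIAP, went from 4.82 and 3.25 CPM to 16.9, 16.4, 11.4 and 10.8 CPM (log2 fold change 1.77, SE 0.28, adjusted p = 0.00017). Cmpk2, a mitochondrial nucleotide kinase, went from 7.03 and 5.07 CPM to 14.2, 15.5, 8.72 and 11.1 CPM (log2 fold change 1.03, SE 0.22, adjusted p = 0.005). All 3 were above both controls in each Cre-positive library. Rsad2 lies next to Cmpk2 on chromosome 12 and just missed the threshold (log2 fold change 1.24, SE 0.39, adjusted p = 0.058). Trim30a was level, at 162 and 168 CPM in the controls and 166, 168, 145 and 155 CPM with Cre (log2 fold change -0.06, SE 0.11). For Mx1 the values were 8.76 and 7.53 CPM against 6.08, 5.08, 5.04 and 6.29 CPM (log2 fold change -0.53, SE 0.27, adjusted p = 0.28), all 4 below the controls.

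None of the 6 signalling genes passed. Isg15 was closest (7.31 and 9.85 CPM against 21.0, 19.1, 9.65 and 14.4 CPM; log2 fold change 0.91, SE 0.28, adjusted p = 0.053), with replicate 3 between the controls. Usp18 was at 35.5 and 40.5 CPM in the controls and at 51.8, 46.7, 30.4 and 40.6 CPM with Cre (log2 fold change 0.16, SE 0.15). Trim25 was at 106 and 106 CPM against 110, 92.4, 104 and 115 CPM (log2 fold change -0.01, SE 0.13), and Stat2 differed by 0.06 (SE 0.24). Each of these 3 genes overlapped between the groups. Parp9 alone of the PARP genes and Dtx3l passed: 46.8 and 41.6 CPM against 62.5, 54.5, 60.1 and 53.7 CPM (log2 fold change 0.38, SE 0.11, adjusted p = 0.043). Parp12 did not (130 and 127 CPM against 120, 108, 106 and 135 CPM; log2 fold change -0.13, SE 0.10).

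Of the remaining 7 genes Rtp4, Ifi27l2a and Lgals3bp rose. Rtp4 went from 0.964 and 0.246 CPM to 17.8, 16.8, 6.90 and 5.04 CPM (log2 fold change 4.18, SE 0.56, adjusted p = 2.8e-05). Ifi27l2a went from 10.1 and 4.73 CPM to 20.4, 22.1, 12.5 and 17.7 CPM (log2 fold change 1.28, SE 0.31, adjusted p = 0.01). Lgals3bp, a secreted glycoprotein, went from 90.1 and 96.8 CPM to 152, 129, 120 and 152 CPM (log2 fold change 0.56, SE 0.15, adjusted p = 0.026). In all 3 the groups did not overlap. Ifi44 had 7.07 and 3.84 CPM in the controls and 18.2, 17.2, 10.0 and 8.32 CPM with Cre (log2 fold change 1.29, SE 0.40, adjusted p = 0.054); it missed the threshold although its groups did not overlap, and its direction was the opposite of its lower level in control cDC2. Tor3a (132 and 145 CPM against 173, 165, 143 and 171 CPM; log2 fold change 0.24, SE 0.11) and Ifi35 (129 and 134 CPM against 114, 119, 104 and 142 CPM; log2 fold change -0.13, SE 0.13) did not pass.

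**Figure D3:**
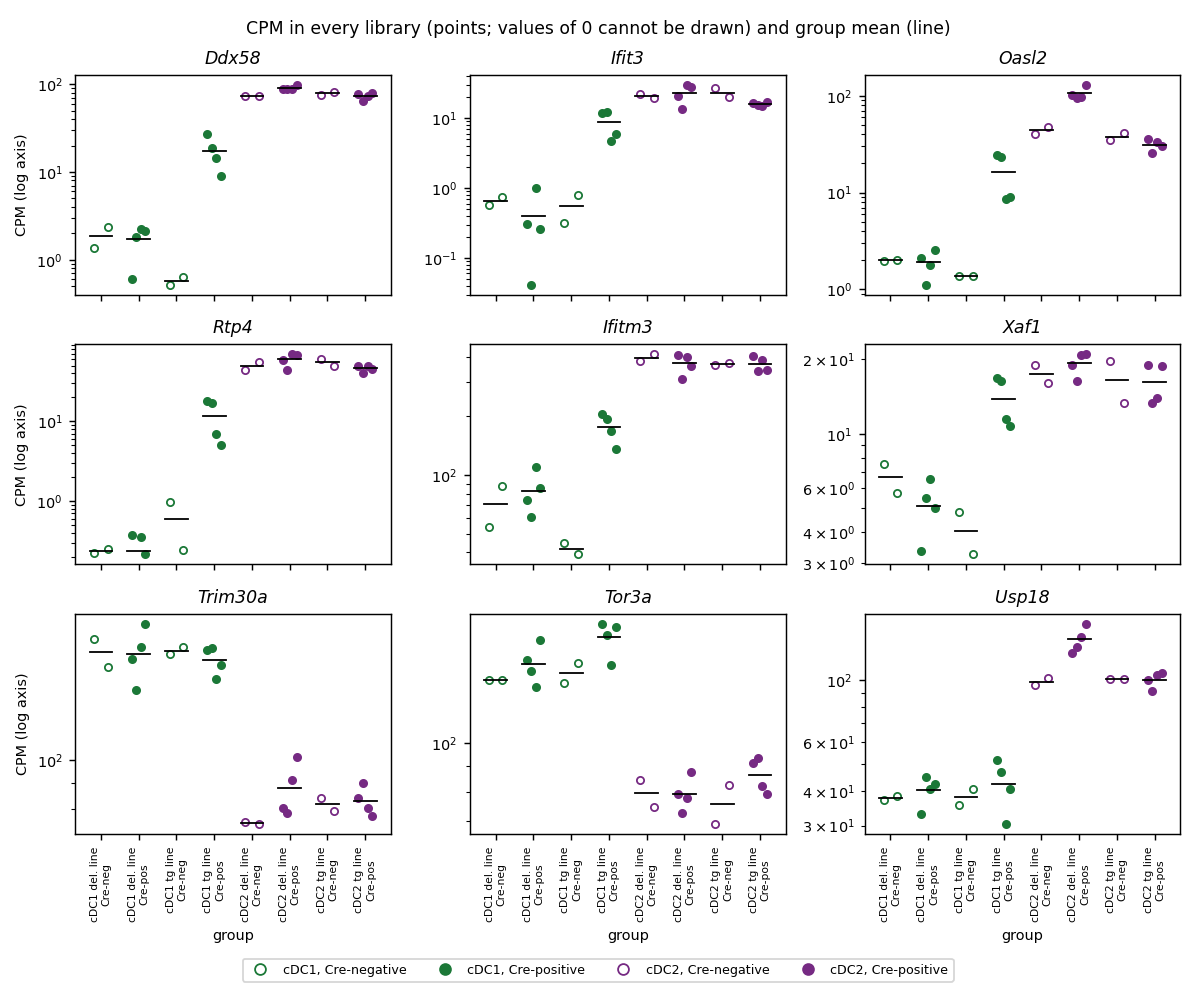
CPM of 9 of the genes in every library (points, log axis; open for Cre-negative, filled for Cre-positive) with the group mean (line), by subset, line (del. deletion, tg transgene) and Cre. Ddx58, Ifit3, Oasl2, Rtp4, Ifitm3 and Xaf1 were higher in the 4 Cre-positive transgene cDC1 libraries than in their controls, while Trim30a, Tor3a and Usp18 did not pass there; Oasl2 was higher in Cre-positive cDC2 of the deletion line. One deletion-line cDC1 library with 0 CPM of Rtp4 is not drawn.

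The calls in transgenic cDC1 rested on 2 control libraries. Without control replicate 2 the count of genes that rose was 11, and without control replicate 1 it was 13. It was 11 without Cre-positive replicates 1 and 2, the libraries with the most cDC2 marker RNA, a setting chosen after seeing the data. Ddx58, Ifit2, Ifit3, Ifit3b, Ifitm3, Oas1a, Oasl2, Rtp4 and Xaf1 were called in all alternatives run, and the other 10 were lost in at least 1. Ifit1 and Oas3 were lost only without control replicate 2 (adjusted p = 0.066 and 0.0503 by edgeR). Isg20, an exonuclease, was called lower without Cre-positive replicates 1 and 2 (log2 fold change -1.22, adjusted p = 0.0179); with all 4 libraries its value was -0.58 (SE 0.31).

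The 4 Cre-positive cDC1 libraries of the transgene line differed from each other more than other groups did. The summed level of the 43 genes was 2277, 2093, 1794 and 1882 CPM in replicates 1 to 4, against 1572 and 1582 CPM in the controls. The median ratio of the highest to the lowest of the 4 libraries was 1.77 over the 42 genes above 3 counts in each library, against 1.35 over all tested genes above that floor. In the other 3 Cre-positive groups the median ratio of these genes was 1.41, 1.48 and 1.29. Replicate 1 was the highest for 23 of the 43 genes and replicate 2 for 14, replicate 3 for none. Replicate 3 was the lowest for 23 and replicate 4 for 15. Replicates 1 and 2 both exceeded 3 and 4 for 28 of the 43 (65.1%), against 20.2% of all tested genes. These counts describe the libraries and carry no test.

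The spread was uneven among the genes. It was largest for Oasl1 (4.41-fold between highest and lowest), Ifit1 (3.94-fold) and Ifit3b (3.64-fold), counting genes whose mean log2 CPM was 2 or more. The smallest ratios were those of Trim30a (1.16-fold), Parp9 (1.16-fold) and Tor3a (1.21-fold), of which only Parp9 had passed with the transgene. Xaf1 and Ifitm3 rose with less spread (1.57-fold and 1.51-fold) than Ddx58 (3.01-fold) or Rtp4 (3.54-fold).

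Other measures moved with the order of these libraries. The cDC2 marker sum given at the outset ran from 547 CPM in replicate 1 to 189 CPM in replicate 4, and the cDC1 marker sum was 5640, 5711, 6783 and 7248 CPM, against 9440 and 11594 CPM in the controls. The sum of 10 monocyte markers was 1890, 1842, 2828 and 2669 CPM (controls 1500 and 2621 CPM), in the other order. Their mean log2 CPM, which weighs the 10 alike, was 4.74, 4.80, 4.50 and 4.47 (controls 4.11 and 3.50). By that measure replicates 1 and 2 were the highest. The sum of 10 red pulp macrophage markers was 392, 396, 211 and 353 CPM (controls 149 and 187 CPM). Of these markers Adgre1, Hmox1 and Spic rose, and the other 7, among them the complement genes C1qa, C1qb and C1qc, did not pass. The sum of 10 plasmacytoid dendritic cell markers was lower than in the controls, at 64.5, 48.1, 65.1 and 52.9 CPM against 83.1 and 83.7 CPM. The mean levels of the 10 cDC2 markers ran from 0.28% to 69.3% of those in control cDC2 of the line, with a median of 13.4%. Clec7a, a receptor for fungal glucans and the highest of the 10 on this scale, stood at 206, 212, 107 and 61.4 CPM, against 235 and 188 CPM in control cDC2 and 2.53 and 2.56 CPM in control cDC1, so that 2 of the 4 libraries were at the cDC2 level. Esam was at 29.4%, Cd4 at 25.8% and Clec4a2 at 21.0% of the control cDC2 level. The lowest of the 10 were Clec10a and Clec4a4. Clec10a was at 0 CPM in 3 of the 4 libraries and at 0.144 CPM in replicate 1, against 12.5 and 13.1 CPM in control cDC2 of the line. Clec4a4 was at 3.31, 4.75, 2.17 and 0.840 CPM, against 160 and 152 CPM. The part of these markers in the spread of the 43 genes was not tested.

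**Figure D4:**
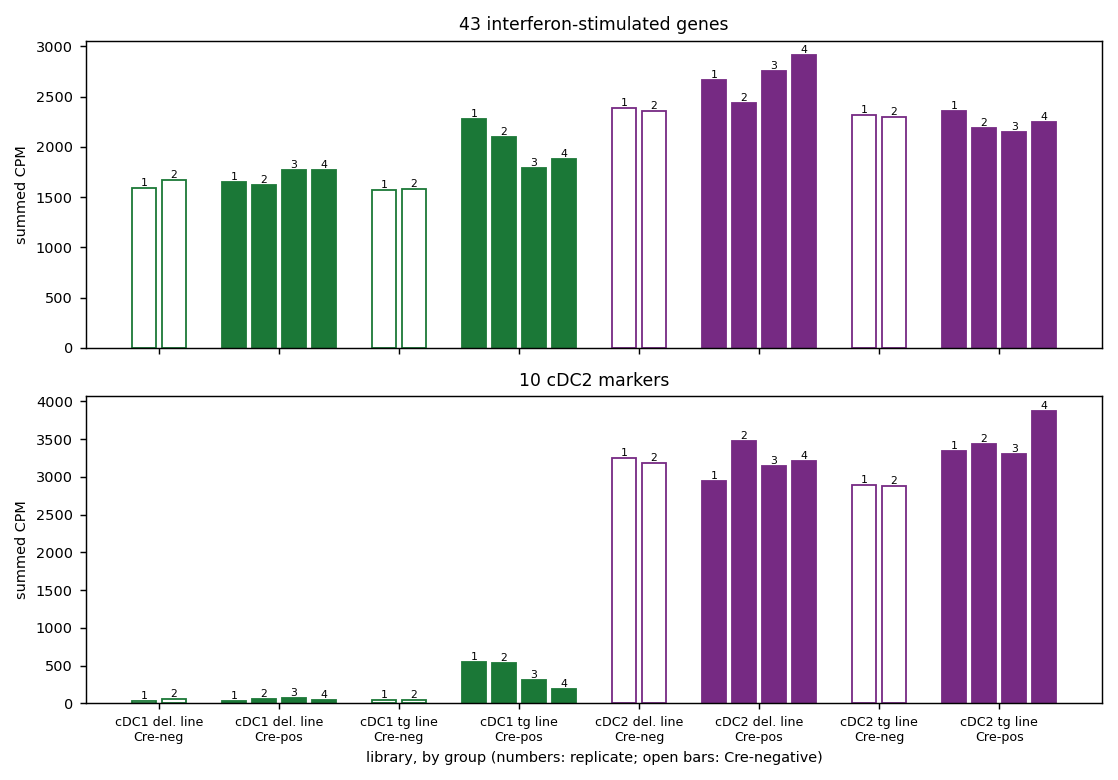
Summed CPM of the 43 interferon-stimulated genes (top) and of the 10 cDC2 markers (bottom) in each library; bar labels are replicate numbers, open bars Cre-negative and filled bars Cre-positive libraries. In Cre-positive transgene cDC1 both sums were higher in replicates 1 and 2 (2277 and 2093 CPM for the 43 genes) than in replicates 3 and 4 (1794 and 1882 CPM).

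How near the transgenic cDC1 came to cDC2 was read from a direct comparison with the control cDC2 of the same line. Of the 43 genes 18 were lower and 8 higher in Cre-positive cDC1, where 23.1% of all tested genes were higher and 24% lower. Over the 14 genes whose control level in the line was at least 4-fold higher in cDC2 than in cDC1, the mean level in transgenic cDC1 was 21.2% to 83.8% of that in control cDC2, with a median of 35.8%. The 10 cDC2 markers, read in the same way, were at 0.28% to 69.3% with a median of 13.4%. These levels include what control cDC1 already had. As the share of the way from control cDC1 to control cDC2, the medians were 32.8% for the 14 genes and 11.0% for the 10 markers. Xaf1 was at 78.6% on that scale. The values that follow are again percentages of the control cDC2 level. Rtp4 was at 21.2%, Ddx58 at 22.2%, Ifit3 at 37.7% and Oasl2 at 43.3% of the control cDC2 level, and all 4 were still lower there by edgeR (log2 fold changes -2.25, -2.18, -1.41 and -1.21). Xaf1 was at 83.8% and its difference did not pass (log2 fold change -0.26, SE 0.24). Among the markers Clec7a was at 69.3%, Sirpa at 6.09% and Cd209a at 5.03%. The 8 genes higher than in control cDC2 were Ifi44, Tor3a, Parp12, Mx1, Trim30a, Ifi35, Lgals3bp and Trim25, with log2 fold changes from 2.82 down to 0.39. These percentages were chosen for genes high in control cDC2 and are descriptions without a test.

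In cDC2 of the transgene line none of the 43 genes passed. Zeb2 itself did not pass there either (104 and 104 CPM in the controls and 151, 152, 148 and 159 CPM with Cre; log2 fold change 0.56, SE 0.29, adjusted p = 0.62), although all 4 Cre-positive libraries were higher. No gene of the list was higher or lower, where 0.114% of all tested genes were higher and 0.213% lower. DESeq2 called 0. At an unadjusted p under 0.05 there was 1 gene, Ifit2, and the share of all genes at that threshold was not counted. Ifit2 was at 43.9 and 36.7 CPM in the controls and at 29.2, 29.8, 24.2 and 28.0 CPM with Cre (log2 fold change -0.53, SE 0.24, adjusted p = 0.54), all 4 below the controls. Ddx58 was at 75.9 and 81.6 CPM against 77.1, 64.5, 72.4 and 79.5 CPM (log2 fold change -0.10, SE 0.27), and Oasl2 at 34.6 and 41.0 CPM against 35.6, 25.5, 33.4 and 30.2 CPM (log2 fold change -0.28, SE 0.30). These 2 overlapped between the groups. The median log2 fold change of the 43 was -0.08, against 0.01 over all tested genes.

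The test of the difference itself, the Cre effect in cDC2 minus that in cDC1 of the transgene line, called 14 of 43 lower and none higher, where 0.82% of all genes were higher and 1.18% lower. The smallest p-values were those of Ddx58 (-5.01, SE 0.54, adjusted p = 9e-06), Ifitm3 (-2.07, SE 0.28, adjusted p = 0.00012) and Oasl2 (-3.84, SE 0.52, adjusted p = 0.00012). Rtp4, Ifit3 and Ifit2 followed with differences of -4.43, -4.54 and -2.30 on the log2 scale. The count was 9 without control cDC2 replicate 1 of the line and 11 without Cre-positive cDC1 replicates 1 and 2. In the same test 6 of the 10 cDC2 markers were lower (Cd4, Clec4a2, Clec4a4, Clec7a, Itgam and Sirpa; median over the 10 of -2.65) and 4 of the 10 cDC1 markers higher (Clec9a, Gcsam, Irf8 and Xcr1). Their part in the difference was not tested.

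**Figure D5:**
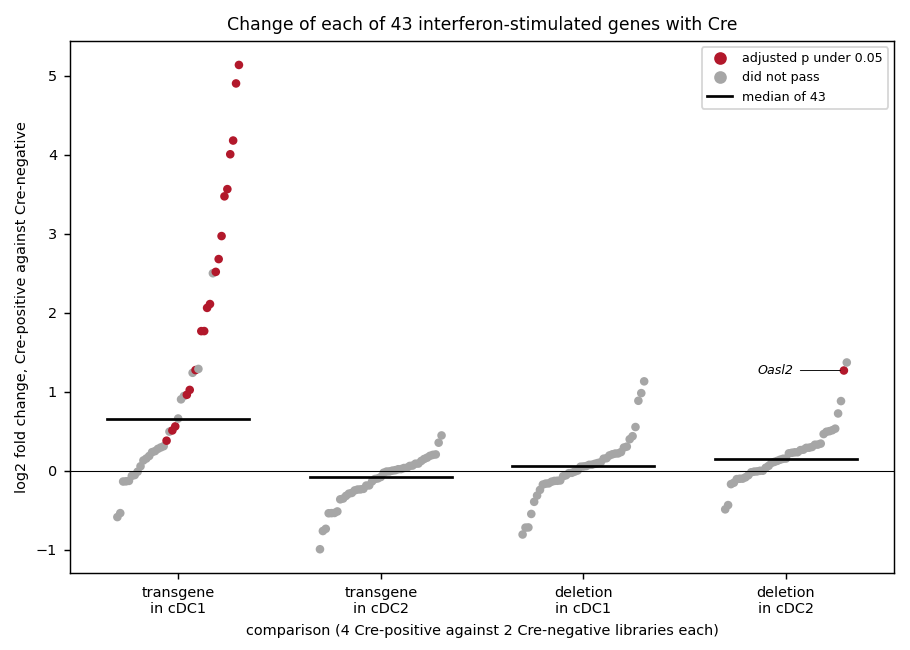
Log2 fold change of each of the 43 genes (points, sorted within a comparison) in Cre-positive against Cre-negative libraries for the transgene and the deletion in each subset, with the median (line). With the transgene in cDC1 19 genes passed (red) and the median was 0.66; in the other 3 comparisons Oasl2 with the deletion in cDC2 alone passed.

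With Zeb2 deleted none of the 43 genes passed in cDC1, where Zeb2 was at 2.67 CPM or less in every library of the line. Of all tested genes 0.0228% were higher and 0% lower, and DESeq2 called 0 of the 43. At an unadjusted p under 0.05 there were 3 genes (Ifit2, Oas3 and Parp9), and the share of all genes at that threshold was not counted. Oas3 was at 3.19 and 3.53 CPM in the controls and at 6.17, 7.86, 7.32 and 5.26 CPM with Cre (log2 fold change 0.98, SE 0.39). Ifit2 was at 19.6 and 19.7 CPM against 12.1, 7.94, 17.0 and 11.0 CPM (log2 fold change -0.71, SE 0.25). Both pairs of groups were apart, in opposite directions, and neither difference passed.

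In cDC2 of the deletion line 1 of 43 genes rose and none fell, where 2.33% of all tested genes were higher and 2.88% lower. That gene was Oasl2, at 40.2 and 47.8 CPM in the controls and at 102, 94.5, 97.6 and 131 CPM with Cre (log2 fold change 1.27, SE 0.32, adjusted p = 0.019). Every Cre-positive library lay well above both controls, but the call was lost without either control library or without Cre-positive replicate 4 (adjusted p = 0.264, 0.0927 and 0.0508 by edgeR). Its neighbour on chromosome 5, Oasl1, was at 5.86 and 5.96 CPM against 10.8, 17.5, 15.1 and 17.9 CPM (log2 fold change 1.37, SE 0.48, adjusted p = 0.11). Usp18 (96.0 and 102 CPM against 126, 132, 144 and 160 CPM; log2 fold change 0.50, SE 0.15, adjusted p = 0.055) and Dtx3l (log2 fold change 0.50, SE 0.15, adjusted p = 0.059) came close. In these genes too every Cre-positive library was above both controls. Over the 43 genes 11 had all 4 Cre-positive libraries above both controls, against 13.5% of all tested genes. At an unadjusted p under 0.05 there were 10, and the share of all genes at that threshold was not counted. Lgals3bp was the only one of these 10 with a lower level, at 124 and 129 CPM in the controls and at 80.5, 80.6, 106 and 109 CPM with Cre (log2 fold change -0.43, SE 0.15, adjusted p = 0.099). Ddx58 stood at 73.8 and 74.1 CPM against 87.1, 88.8, 87.3 and 98.9 CPM (log2 fold change 0.29, SE 0.28), and Ifit2 at 36.8 and 36.2 CPM against 50.9, 37.1, 61.3 and 52.5 CPM (0.47, SE 0.25). Both had every Cre-positive library above the controls, and neither passed. In Ifit1, Ifit3 and Ifit3b the libraries overlapped, with log2 fold changes from 0.11 to 0.27.

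Markers of other cells moved in the same libraries. Of the 10 monocyte markers 6 fell, and of the 10 cDC2 markers none passed. The sum of the B cell markers was 57.5 and 71.5 CPM in the controls and 195, 197, 237 and 252 CPM with Cre, and 1 of the 5 tested, Ms4a1, a B cell surface protein, rose. Of the 10 plasmacytoid dendritic cell markers 2 rose, Atp1b1 and Cox6a2. Their part in the values of the 43 genes was not tested.

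The difference of the deletion effect between the subsets passed for none of the 43 genes, where 0.585% of all genes were higher and 0.494% lower. DESeq2 called 1, Ifit2, where it called 178 of all tested genes higher. At an unadjusted p under 0.05 there were 3 (Ifit2, Lgals3bp and Oasl2), and the share of all genes at that threshold was not counted. That Oasl2 passed in cDC2 and not in cDC1 is thus no shown difference (interaction 1.34, SE 0.53, adjusted p = 0.26).

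The Cre-negative controls of the 2 lines were compared for the genes kept in the list. Ifih1 had been left out because it differs between the lines, so an absence of calls is partly set by that choice. None of the 43 genes passed in cDC1, where 0.0456% of all genes were higher and 0.0835% lower in the transgene line, or in cDC2, where 0.0835% were higher and 0.0532% lower. With 2 libraries against 2, 8 genes in cDC1 and 2 in cDC2 had an unadjusted p under 0.05, and DESeq2 called 0 in both. In cDC1 both transgene-line controls lay below both of the deletion line for 17 of the 43 genes and above for 4. In cDC2 they lay below for 8 and above for 9. The shares of all genes for these counts and for the unadjusted p were not counted, so they cannot be read as a trait of the 43 genes. The smallest p was that of Ifitm3 in cDC1 (54.0 and 87.9 CPM in the deletion line against 44.5 and 39.2 CPM; log2 fold change -0.76, SE 0.23, adjusted p = 0.41). Ifih1, which encodes the RNA sensor MDA5, did differ: 4.58 and 4.45 CPM against 14.8 and 14.6 CPM in control cDC1 (log2 fold change 1.70, SE 0.20, adjusted p = 5.9e-05), and 13.8 and 19.1 CPM against 56.5 and 51.5 CPM in control cDC2 (log2 fold change 1.71, SE 0.19, adjusted p = 1.4e-05). With the transgene it rose in cDC1 to 31.7, 27.8, 25.0 and 23.8 CPM (log2 fold change 0.88, SE 0.17, adjusted p = 0.0014).

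Around the 43 genes, the interferon pathway itself was read from 5 lists. None of 21 interferon genes passed the filter on low counts, and their summed level was 0 to 0.56 CPM in any library, so no change in interferon transcripts was detectable at this depth. Of 9 receptor and kinase genes, 5 were higher and 3 lower in control cDC2, and with the transgene in cDC1 none rose and 2 fell (Jak2 and Ifnlr1). Jak2 was at 181 and 218 CPM in the controls and at 115, 121, 156 and 126 CPM with Cre (log2 fold change -0.63, SE 0.11, adjusted p = 0.00075). Ifnar1 passed in no comparison; with the transgene in cDC1 it was at 89.6 and 82.1 CPM against 81.5, 75.3, 88.7 and 90.4 CPM. Ifnar2 was higher in control cDC2 (log2 fold change 0.90, SE 0.09, adjusted p = 7.9e-09) and with the transgene in cDC1 changed by 0.26 (SE 0.11, adjusted p = 0.18). The deletion in cDC2 went with a rise of Jak2 and Il10rb, by 0.51 and 0.41 on the log2 scale.

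Of 10 transcription factors and feedback genes, 2 were higher and 3 lower in control cDC2, and with the transgene in cDC1 none rose and Irf8 fell (log2 fold change -0.80, SE 0.18, adjusted p = 0.0054); Irf8 is also a listed cDC1 marker. Irf9 and Irf7, which transmit the interferon signal, did not pass with the transgene in cDC1. Irf9 was at 155 and 142 CPM against 147, 142, 114 and 133 CPM (log2 fold change -0.15, SE 0.10). Irf7 was at 134 and 148 CPM against 176, 185, 120 and 161 CPM (log2 fold change 0.19, SE 0.14). In both the groups overlapped. Between the control subsets Irf7 was lower in cDC2 (log2 fold change -0.61, SE 0.12, adjusted p = 0.00012).

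Of 13 other sensors and adaptors, 5 were higher and 2 lower in control cDC2, and with the transgene in cDC1 Tlr7 and Myd88 rose and Tlr3 fell. Tlr7, an endosomal RNA receptor, went from 0.201 and 0.148 CPM to 5.21, 4.28, 1.09 and 0.522 CPM (log2 fold change 3.90, SE 0.87, adjusted p = 0.0055), with replicates 1 and 2 again the highest, against 105 and 118 CPM in control cDC2 of the line. Tlr3, a receptor for double-stranded RNA and a listed cDC1 marker, went from 363 and 380 CPM to 129, 132, 203 and 184 CPM (log2 fold change -1.20, SE 0.18, adjusted p = 0.00011). Of 20 genes known for their response to interferon gamma, 9 were higher and 6 lower in control cDC2. With the transgene in cDC1 2 of them rose (Gbp3 and Gbp7, guanylate-binding proteins) and 3 fell (Tap1, Psmb9 and Nlrc5, which serve antigen presentation by MHC class I). Tap1 was at 922 and 985 CPM against 580, 568, 492 and 600 CPM (log2 fold change -0.77, SE 0.11, adjusted p = 4.2e-05), and all 4 Cre-positive libraries lay below both controls. In no other Cre comparison did a gene of these 20 pass.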

How the data were processed

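RNA-seq of 24 libraries was used. The deposited files hold whole-number read counts per gene symbol as the authors made them, 1 file per library. Per the submitters' processing notes, FastQC 0.11.4, Trimmomatic 0.35, TopHat2 2.1.0 and SAMtools 0.1.18 and the mouse build mm10 were used; for the counting tool, the annotation and the use of strand the sources used here give nothing. The 5 lines of reads in no single gene were left out of totals.

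From the authors' counts, genes were filtered with filterByExpr (minimum count 10, minimum total 15), scaled by TMM and fitted with edgeR 4.0.16 (R 4.3.3) as 8 group means over all 24 libraries, with quasi-likelihood tests and Benjamini-Hochberg adjustment at 0.05 over all tested genes. CPM are the deposited counts per 1000000 counts of the TMM-scaled library; the log2 CPM in the plot of all 43 genes carry a prior count of 0.5. Comparisons of Cre-positive libraries used 4 against 2, those of the control subsets 4 against 4 as a mean of both lines. Alternatives were DESeq2 1.42.0, other filters and scaling, the compared libraries alone, a replicate block and each library left out. The fit was tested on simulated data.

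The 43 genes and the other lists were chosen with earlier results of these data known. Values in every library are given for up to 12 genes with the smallest p in the comparison of the subsets or of the transgene in cDC1, for genes that passed against the main direction, for up to 6 that passed in another comparison, and for the 3 smallest and 3 largest spreads among transgenic cDC1; genes just missing the threshold and others named beside them were added after their values were seen. Promoters come from RefSeq (GRCm38.p6) and positions from GENCODE vM21. Ifit3 and Ifit3b, and Oas1a and Oas1g, are near copies. Several genes (Parp9 and Dtx3l, Usp18, Oasl1, Eif2ak2, Dhx58, Slfn5, Ifi35, Adar) overlap exons of a gene on the other strand. Rtp4, Herc6, Parp14 and Uba7 overlap exons of a gene on the same strand. The counts of all these genes are uncertain to that degree.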

Additional observations from a re-analysis of the deposited data

Results flagged for a closer look

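In the transgene line the Cre effect on 14 of the 43 genes differed between cDC2 and cDC1 by edgeR's interaction test. The differences on the log2 scale (cDC2 minus cDC1) were -5.01 for Ddx58, -2.07 for Ifitm3, -3.84 for Oasl2, -4.43 for Rtp4, -4.54 for Ifit3 and -2.30 for Ifit2. In the same test 6 of the 10 cDC2 markers were lower (median over the 10 of -2.65) and 4 of the 10 cDC1 markers higher, and their part was not tested.

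Single libraries stood apart from the other 3 of their group in 2 of 100 groups of 4 checked, where chance gives about 5%. Ifi35 was at 119 CPM in Cre-positive cDC1 replicate 4 of the deletion line, below the other 3 (131 to 132 CPM). Ddx58 was at 98.9 CPM in Cre-positive cDC2 replicate 4 of the deletion line, above the other 3 (87.1 to 88.8 CPM).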

How the results depend on the processing

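No fold change of a called gene reversed under any alternative run. Of the calls, 31 of 35 between the control subsets, 9 of 19 with the transgene in cDC1, 8 of 14 in the transgene interaction, 19 of 26 against control cDC2 and 0 of 1 with the deletion in cDC2 were kept in every setting. Left-out libraries moved the count of genes that rose with the transgene in cDC1 from 19 to between 11 and 22, the interaction's 14 to between 9 and 15, the deletion's 1 in cDC2 to between 0 and 2, and the deletion interaction's 0 to between 0 and 1. Without Cre-positive cDC1 replicates 1 and 2 the transgene gave 11 higher and 1 lower. With the deletion in cDC2 the 1 became 3 under the stricter filter, 4 by DESeq2 and 3 with the compared libraries alone; the deletion interaction's 0 became 1 by DESeq2 (Ifit2). The causes were not tested.

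With the replicate number as a block the transgene in cDC1 gave 23 higher, the deletion in cDC2 3 higher and 1 lower (Lgals3bp), and the deletion interaction 1 higher. The transgene interaction again gave 14 lower, without Oas1g (adjusted p = 0.059) and with Phf11d (adjusted p = 0.0214). Deviations of same-numbered cDC1 and cDC2 libraries correlated at 0.101 to 0.111 in the Cre-positive transgene pairs, at 0.0764 to 0.17 in those of the deletion line and at -0.00779 and 0.0352 in the controls. Not every pair was over 0.1, so the numbers were not taken as pairs; as a hint from the data, 8 of 8 Cre-positive libraries of each line correlated best with their own number. No paired analysis was possible for the controls of the 2 lines because they are different mouse lines. Genes with a handful of counts in control cDC1 (Ifit3b, Oas1g, Oas2, Mx2) are limited by depth.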
